A study of Sus scrofa with 6 samples.

Results

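The read counts of 10 nuclear receptor genes of the pig were examined in cultured cells of the fetal testis that were treated with a stable form of vitamin C. The genes were NR2F1, NR2F2, NR2F6, NR3C1, NR3C2, NR1H3, NR1H4, RORA, PPARG and NR4A1. They are the rows of the deposited gene count table whose Ensembl identifier carries one of these symbols, 10 of 17670 rows in all, and 9 of them had enough counts to be tested. The genes were chosen by their differences in CPM between AA2P and control cells in these same libraries, known from an earlier look at the data, so that difference is given below as a description and no p-value is printed for them. There were 6 RNA sequencing libraries. The 3 AA2P libraries came from cells given L-ascorbic acid 2-phosphate (AA2P) at 250 µM after 6 h in culture, and the 3 control libraries from cells of the control group. All were labelled immature Sertoli cells, the nurse cells of the seminiferous tubule, from testes at 80 to 90 days of gestation, and grew in serum-supplemented minimum essential medium. The sources used here do not give the duration of the AA2P treatment, the breed or the number of donors. The labels do not describe the libraries of a group as separate cultures or animals, so each p-value below reflects the spread among these libraries alone, and that spread may be technical.

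Nuclear receptors are transcription factors with a zinc-finger DNA-binding domain and a ligand-binding domain. Some are switched on by a hormone or a metabolite, such as cortisol, aldosterone, oxysterols or bile acids, and others are orphans with no agreed natural ligand. They bind repeats of short DNA sequences alone or as pairs, many of them with a retinoid X receptor, and recruit coactivators or corepressors. NR2F1 and NR2F2, also called COUP-TFI and COUP-TFII, are orphans that mostly repress, and in the mouse and human testis NR2F2 is known as a factor of interstitial stromal and Leydig cells rather than of Sertoli cells.

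Library totals lay between 18747307 and 23122000 counts with AA2P and between 19299585 and 23521291 in controls. Values are given as CPM, read counts scaled to a common library size with TMM factors, which correct library totals for a few very abundant genes. A count of 0 allows a true level of up to 3 counts, which was 0.123 to 0.165 CPM and covers counting error only. AA2P library 3 was the closest of its group to the controls. Its log2 CPM correlated with those of control libraries at 0.970 on average across genes, where AA2P libraries 1 and 2 gave 0.959 and 0.961. With library totals in place of TMM the log2 fold changes of all tested genes had a median of 0.17 instead of 0.00, so small differences depend on the scaling.

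The labelled cell type was only partly borne out by its markers. Of 15 Sertoli markers, 11 had a row. AMH averaged 34.5 ± 2.35 CPM with AA2P and 36.4 ± 1.52 CPM in controls (SD, n = 3 each), WT1 averaged 23.8 ± 4.20 and 40.7 ± 4.21 CPM, and SOX9 averaged 2.22 ± 0.459 and 11.6 ± 0.648 CPM in the same order. By edgeR's quasi-likelihood test 26.1% of all tested genes fell and 26.0% rose. Of the 7 Sertoli markers tested by it, 5 fell (SOX9, WT1, INHBB, KRT18 and CLU), AMH did not pass and 1 rose. That 1 was TF, transferrin, at 2.91 ± 1.13 CPM with AA2P and 0.238 ± 0.125 CPM in controls, with an adjusted p of 2.0e-06 by the same test. Its control level rested on 8, 2 and 5 counts in control libraries 1 to 3. INHA, DHH and NR5A1 had at most 0.276 CPM in any library, and AMHR2 at most 0.595 CPM. The summed level of the 11 markers was 1338 to 1913 CPM with AA2P and 4487 to 4818 CPM in controls, most of it from clusterin (CLU). Of 8 renal tubule markers, 6 had a row, and PAX2, LRP2, CUBN and CDH16 were each above 11 CPM in every library. AQP1 had 0.496 to 1.59 CPM over all libraries, and UMOD had 1 count in AA2P library 3 and 0 in each of the others. The summed level of the 6 was 719 to 999 CPM with AA2P and 209 to 244.5 CPM in controls. Of the other cell types, 5 of 5 peritubular markers had a row and summed to 293 to 344.7 CPM with AA2P and 413 to 419 CPM in controls, most of it TAGLN, with ACTA2 and MYH11 under 1 CPM. Of these, TAGLN and DES fell 1.22-fold and 4.64-fold, while CNN1 rose 1.96-fold to 1.18 ± 0.167 CPM with AA2P, against 0.595 ± 0.139 CPM in controls. The endothelial marker PECAM1, the only row of 4 listed, averaged 6.97 ± 0.875 CPM with AA2P and 2.26 ± 0.385 CPM in controls. Macrophage and germ cell markers, with 2 of 3 and 1 of 4 rows, summed to under 1 CPM in every library. Whether the shifts of the Sertoli, renal tubule, peritubular and endothelial markers have a part in the differences below was not tested. The groups are called AA2P cells and control cells.

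**Figure D1:**
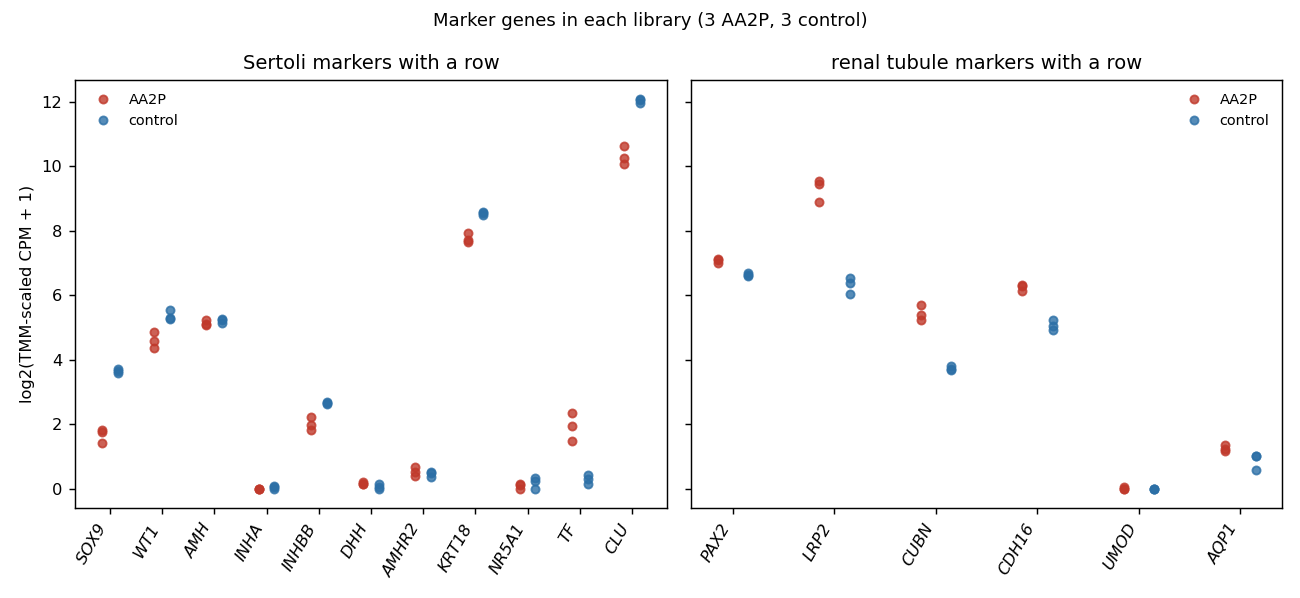
Level of each Sertoli marker (left) and renal tubule marker (right) with a row in the table, as log2(CPM + 1), in the 3 AA2P libraries (red) and the 3 control libraries (blue). INHA, DHH and NR5A1 lie near 0 in all libraries, and PAX2, LRP2, CUBN and CDH16 lie higher in every AA2P library than in any control library.

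The 3 NR2F genes were all higher in AA2P cells than in control cells, and NR2F2 and NR2F1 had the largest absolute log2 fold changes of the 9 tested genes of the set. NR2F2, which encodes COUP-TFII, had 36.7, 36.7 and 27.7 CPM in AA2P libraries 1 to 3, against 17.9, 14.6 and 17.3 CPM in control libraries 1 to 3. Every AA2P library lay above every control library, and AA2P library 3 was the lowest of its group. The means were 33.7 ± 5.24 CPM with AA2P and 16.6 ± 1.75 CPM in controls (SD, n = 3 each), a fold of 2.02 and a log2 fold change of 1.01 with a standard error of 0.11. Without AA2P library 3 the log2 fold change was 1.14. In bulk RNA, a change in the number of cells that express a gene and a change in its RNA per cell cannot be told apart, here and below.

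NR2F1, the paralog that encodes COUP-TFI, had 7.36, 8.18 and 7.35 CPM in AA2P libraries, against 4.42, 3.97 and 3.54 CPM in control libraries. The groups did not overlap, and these levels rest on 147 to 179 counts per AA2P library and 72 to 98 counts per control library. Its log2 fold change was 0.94 with a standard error of 0.13, or 1.91-fold. NR2F6, also called EAR2, a more distant orphan of the same subfamily, had 41.4, 40.8 and 39.0 CPM in AA2P libraries, against 28.3, 30.1 and 29.9 CPM in control libraries. It was the steadier gene within groups, with a coefficient of variation of 3.06% among AA2P libraries and 3.45% among control libraries, where NR2F2 had 15.6% and 10.5%. Its log2 fold change was 0.46 with a standard error of 0.06, or 1.37-fold. Of all tested genes, 8.85% had a larger absolute log2 fold change than NR2F2, 10.0% a larger one than NR2F1 and 25.6% a larger one than NR2F6.

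Most markers of the testis cells in which NR2F2 is known were at or near 0 in both groups, with STAR as the exception. The Leydig genes CYP17A1 and INSL3 had at most 0.0501 CPM in any library, and the stromal receptor PDGFRB had at most 0.0501 CPM. The 2 stromal markers with a row, of 5 listed, summed to 0.297 to 0.616 CPM with AA2P and 0.180 to 0.441 CPM in controls. The 3 Leydig markers with a row, of 6 listed, summed to 6.36 to 7.38 CPM with AA2P and 5.58 to 5.84 CPM in controls, nearly all of it STAR.

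**Figure D2:**
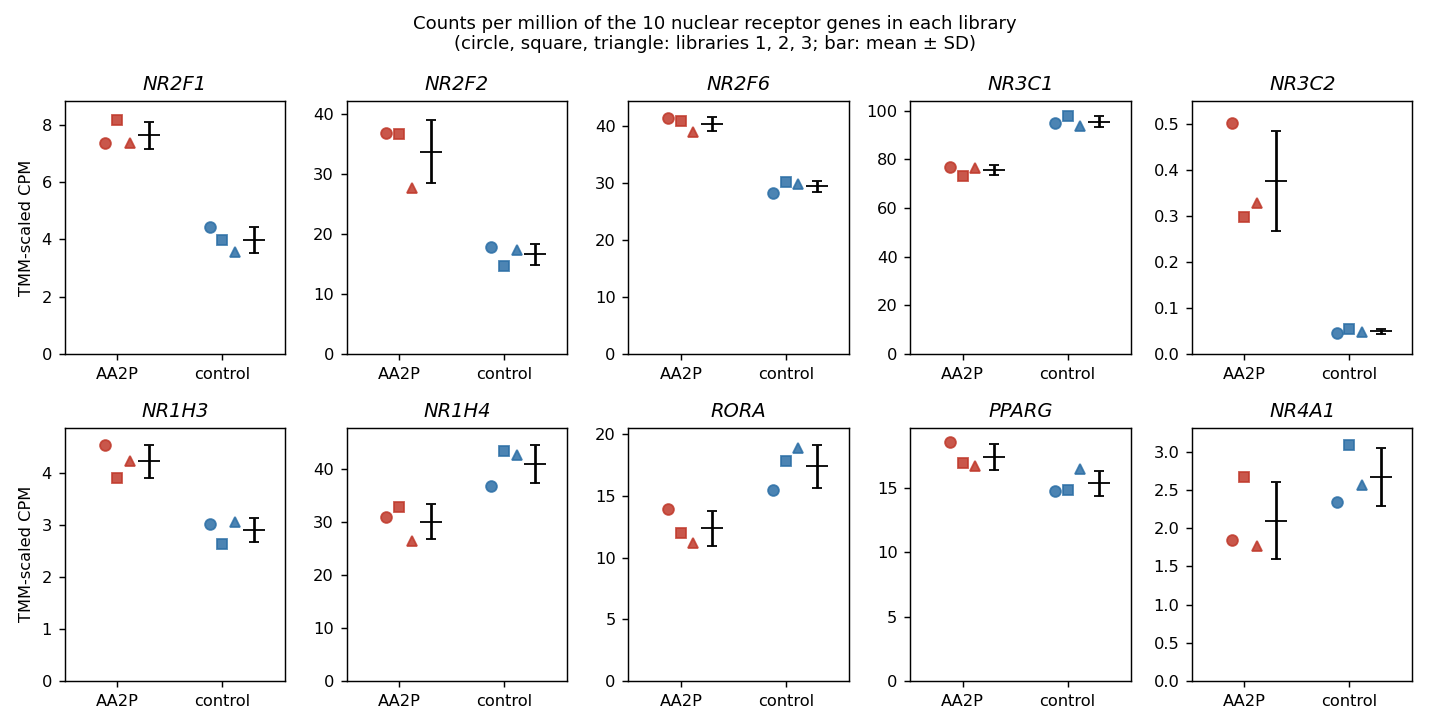
TMM-scaled CPM (y axis, from 0) of the 10 receptor genes in each AA2P library (red, left) and control library (blue, right), with the mean and SD of each group beside the points. The groups overlap for NR4A1 and nearly touch for PPARG, and the NR2F genes lie higher with AA2P while NR3C1, NR1H4 and RORA lie lower.

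The corticoid receptors differed in opposite directions and at very different depth. NR3C1, the glucocorticoid receptor, which binds cortisol, had 76.9, 73.3 and 76.4 CPM in AA2P libraries, against 94.96, 97.8 and 93.6 CPM in control libraries. The groups did not overlap, and the libraries of a group lay close together, with coefficients of variation of 2.60% with AA2P and 2.26% in controls. The log2 fold change was -0.34 with a standard error of 0.05, which is 1.26-fold lower with AA2P. With library totals it was -0.17, so the size of this difference depended on the scaling.

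NR3C2, the mineralocorticoid receptor, which binds aldosterone and also cortisol, was barely detected. It had 10, 6 and 8 counts in AA2P libraries and 1 count in each control library, or 0.501, 0.297 and 0.329 CPM against 0.0451, 0.0551 and 0.0485 CPM. All 3 control libraries lay under the level of 3 counts, and the gene did not pass the filter on low counts. The ratio of the summed counts, 24 with AA2P and 3 in controls, was 7.56 after scaling, with a 95% exact binomial interval of 2.30 to 39.2. That interval covers counting error only and leaves out the spread among libraries. Since the gene was picked on this contrast, the interval is a description and not a test.

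NR1H3 and NR1H4 respond to sterols and bile acids, and they also differed in opposite directions. NR1H3, the oxysterol receptor LXR alpha, had 4.56, 3.91 and 4.23 CPM in AA2P libraries, against 3.02, 2.65 and 3.06 CPM in control libraries. All AA2P libraries lay above all control libraries, with 48 to 103 counts per library over both groups. Its log2 fold change was 0.54 with a standard error of 0.15, or 1.45-fold. NR1H3 overlaps MADD and ACP2 in the RefSeq annotation of Sscrofa 11.1, so reads could be shared, and whether they were was not tested. Neither neighbour passed the test between groups. MADD averaged 5.84 ± 0.533 CPM with AA2P and 5.30 ± 0.951 CPM in controls, and ACP2 averaged 28.4 ± 3.01 CPM with AA2P and 28.5 ± 1.99 CPM in controls (SD, n = 3 each).

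NR1H4, the bile acid receptor FXR, best known from liver, intestine and kidney, had 31.0, 32.8 and 26.3 CPM in AA2P libraries, against 36.7, 43.4 and 42.7 CPM in control libraries. The groups did not overlap, with control library 1 the nearest to the AA2P libraries. The means were 30.0 ± 3.34 CPM with AA2P and 40.9 ± 3.65 CPM in controls (SD, n = 3 each), and the log2 fold change was -0.45 with a standard error of 0.09. With library totals it was -0.28.

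RORA, a receptor that activates clock genes such as BMAL1 from sites it shares with the repressors NR1D1 and NR1D2, had 13.97, 11.99 and 11.2 CPM in AA2P libraries, against 15.5, 17.9 and 18.9 CPM in control libraries. No AA2P library reached the lowest control library, but AA2P library 1 and control library 1 were close. Its log2 fold change was -0.49 with a standard error of 0.11, or 1.41-fold lower with AA2P. With library totals it was -0.32.

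PPARG and NR4A1 showed the smallest or least certain differences. PPARG, the fatty acid receptor that drives fat cell formation, had 18.5, 16.9 and 16.7 CPM in AA2P libraries, against 14.7, 14.8 and 16.5 CPM in control libraries. The lowest AA2P library and the highest control library differed by less than the spread within either group, and the log2 fold change was 0.18 with a standard error of 0.09, or 0.35 with library totals. NR4A1, also called NUR77, an orphan induced within minutes to hours by many stimuli, had 1.85, 2.68 and 1.77 CPM in AA2P libraries, against 2.34, 3.09 and 2.57 CPM in control libraries. The groups overlapped, at 37 to 56 counts per library, and the log2 fold change was -0.35 with a standard error of 0.21.

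With p-values of edgeR's quasi-likelihood test adjusted over 12701 genes by the Benjamini-Hochberg method, 7 of the 9 tested receptors lay under 0.05. Of these 4 were higher in AA2P cells and 3 were lower. NR2F1, NR2F2, NR2F6 and NR1H3 were the higher genes, and NR3C1, NR1H4 and RORA the lower genes. Over all tested genes 52.1% passed, 26.0% higher and 26.1% lower. The groups did not overlap for 8 of the 9, and for 59.3% of all tested genes. Since the genes were picked on this contrast, nothing is read from these counts. In this fit NR2F2, at 2.02-fold, was the 1 receptor of the set that passed with a change of at least 2-fold, as did 9.01% of all tested genes. It lay at that limit: its log2 fold change was under 1 without AA2P library 1 (0.94), AA2P library 2 (0.95) or control library 2 (0.93) and with limma-voom (0.996). NR2F1 also reached 2-fold with library totals (1.10 on the log2 scale) and without control library 1 (1.02). AA2P library 3 was the AA2P library nearest the control mean for NR2F1, NR2F2, NR2F6 and PPARG, 4 of the 10 genes, and for 45.7% of all tested genes.

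The rest of the family was examined to place these genes among their relatives. The list of further receptors held 36 genes, of which 28 had a row and 24 were tested. Of these, 10 rose and 7 fell with AA2P and 7 did not pass. That is 70.8% called, against 52.1% of all tested genes, with a median log2 fold change of 0.13 against 0.00. With library totals 12 rose and 4 fell: RARA, RARG and NR6A1 no longer passed, while PPARA and NR1H2 did.

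HNF4A and ESR1 had the highest log2 fold changes of the family. HNF4A, a fatty-acid-binding receptor of liver, intestine and kidney tubule that binds the same type of DNA repeat as the NR2F proteins, had 163, 171 and 131 CPM in AA2P libraries, against 41.7, 34.2 and 39.8 CPM in control libraries. It rose 4.01-fold, with an adjusted p of 4.2e-11 by edgeR's quasi-likelihood test, and AA2P library 3 was again the lowest of its group. Its paralog HNF4G rose 1.47-fold, to 20.0 ± 1.79 CPM with AA2P, against 13.6 ± 0.891 CPM in controls (SD, n = 3 each), with an adjusted p of 0.00010 by the same edgeR test. ESR1, estrogen receptor alpha, had 1.95, 2.23 and 1.64 CPM in AA2P libraries, against 0.451, 0.441 and 0.243 CPM in control libraries, where it rested on 5 to 10 counts. ESR2, estrogen receptor beta, had 0.401, 0.793 and 0.781 CPM in AA2P libraries, against 2.03, 2.04 and 2.09 CPM in control libraries. ESR1 thus rose 5.05-fold and ESR2 fell 3.06-fold, with adjusted p-values of 6.9e-06 and 7.9e-05 by edgeR's quasi-likelihood test.

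Other steroid and orphan receptors also changed. The estrogen-related receptors ESRRB and ESRRG, orphans that drive mitochondrial and other metabolic genes, rose 1.70-fold and 2.13-fold, while ESRRA averaged 2.08 ± 0.564 CPM with AA2P and 1.89 ± 0.141 CPM in controls (SD, n = 3 each) and did not pass. VDR, the vitamin D receptor, fell to 40.7 ± 6.18 CPM with AA2P, against 72.3 ± 4.81 CPM in controls. Adjusted p-values of the receptors that passed in this paragraph lay between 6.7e-07 (VDR) and 1.1e-05 (ESRRG) by edgeR's quasi-likelihood test.

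Of the close relatives of the 10 genes some passed the test and others did not, and differences between relatives were not tested. Of the relatives of NR4A1, which share its DNA-binding site, NR4A2 rose 1.35-fold and NR4A3 rose 2.50-fold, to 2.30 ± 0.656 CPM with AA2P, against 0.911 ± 0.122 CPM in controls (SD, n = 3 each). NR4A2 missed the threshold without AA2P library 1 and without control library 1 or 3, with log2 fold changes of 0.36, 0.42 and 0.33, against 0.43 with all libraries. PPARD, the widely expressed relative of PPARG, rose 1.35-fold, and PPARA averaged 22.6 ± 2.36 CPM with AA2P and 21.5 ± 1.21 CPM in controls. NR1H2, the widely expressed LXR beta, averaged 38.05 ± 1.47 CPM with AA2P and 35.6 ± 0.902 CPM in controls. NR1D2, a heme-binding clock repressor, fell to 45.9 ± 2.43 CPM with AA2P, against 78.3 ± 1.78 CPM in controls, while NR1D1 averaged 1.72 ± 0.293 and 1.43 ± 0.235 CPM in the same order. Adjusted p-values of the receptors that passed here lay between 1.2e-08 (NR1D2) and 0.018 (NR4A2) by edgeR's quasi-likelihood test.

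The retinoid receptors that passed the test went both ways. RXRA, a common partner of NR1H3, NR1H4 and PPARG, fell 1.30-fold, RARA and RARG fell 1.21-fold and 1.22-fold, and RARB rose 1.46-fold. RXRB averaged 29.6 ± 1.48 CPM with AA2P and 31.7 ± 1.36 CPM in controls (SD, n = 3 each). By edgeR's quasi-likelihood test the 4 that passed had adjusted p-values between 0.0012 (RARB) and 0.0043 (RARA).

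**Figure D3:**
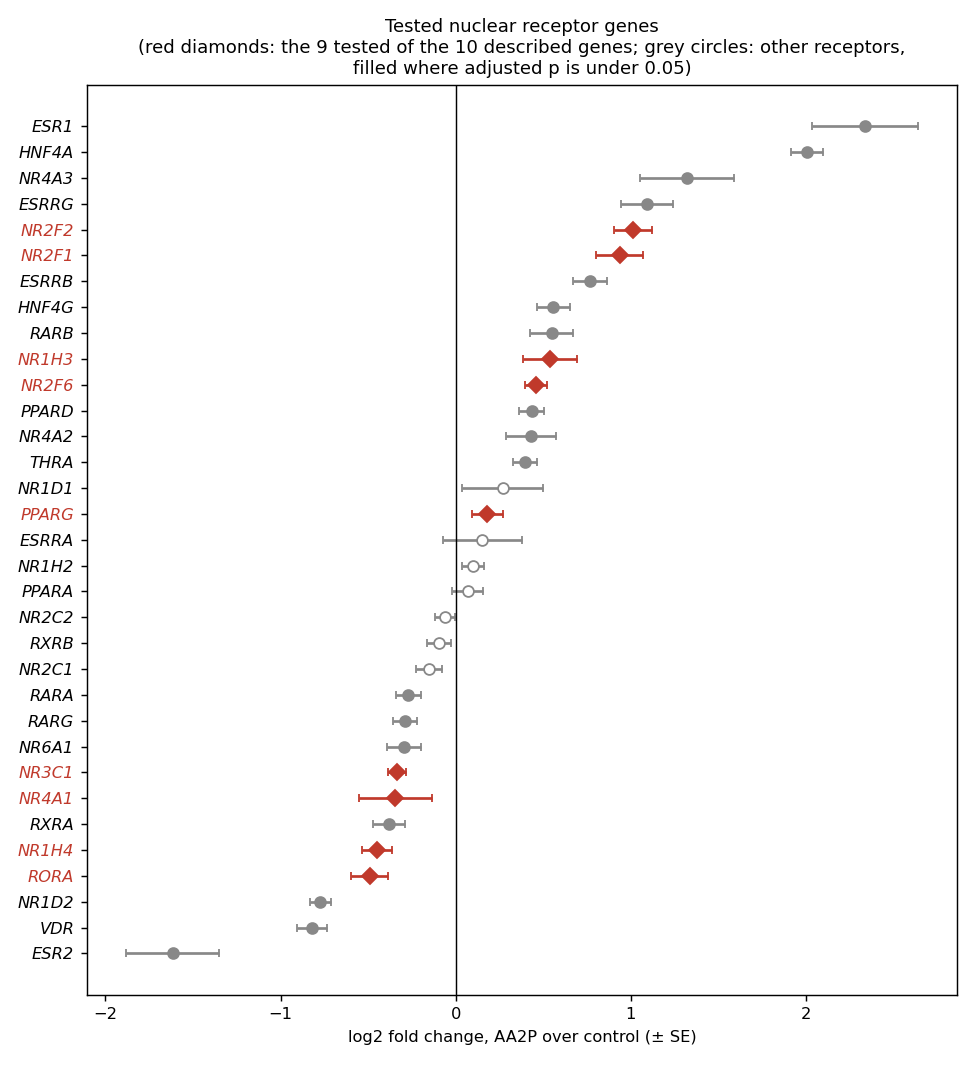
Log2 fold change, AA2P over control, with its standard error, for 33 tested nuclear receptor genes. The 9 tested genes of the described set are red diamonds and run from -0.49 (RORA) to 1.01 (NR2F2), inside the range of the family, from -1.62 (ESR2) to 2.34 (ESR1).

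Coregulators are the proteins that receptors recruit to open or close chromatin. Of 15 listed, 14 were tested, 6 rose, 3 fell and 5 did not pass, with a median log2 fold change of 0.03. Beside the counts of this list and those below, 26.0% of all tested genes were called higher and 26.1% lower. The coactivator NCOA2 rose 1.46-fold to 202 ± 11.4 CPM with AA2P, against 139 ± 0.709 CPM in controls (SD, n = 3 each). The corepressor NRIP1 rose 1.22-fold. PPARGC1A, a coactivator of PPARG, HNF4A and the estrogen-related receptors, rose 4.74-fold from few reads, with 28 to 39 counts per AA2P library and 5 to 8 per control library. PNRC1, a small coactivator, fell 1.16-fold but missed the threshold with library totals. NCOR1 averaged 122 ± 10.9 CPM with AA2P and 127 ± 7.39 CPM in controls, its complex partner TBL1XR1 averaged 114 ± 3.66 CPM with AA2P and 116 ± 1.09 CPM in controls, and NCOA3 averaged 82.8 ± 1.57 CPM with AA2P and 78.2 ± 0.161 CPM in controls. With library totals TBL1XR1 and NCOA3 passed, at log2 fold changes of 0.14 and 0.25, against -0.03 and 0.08 with TMM. NCOR1 passed under 1 of 13 alternatives. For the 4 named genes that passed, adjusted p-values lay between 2.2e-07 (NCOA2) and 0.0023 (PNRC1) by edgeR's quasi-likelihood test.

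Of 10 listed partners and targets of the NR2F proteins, 6 had a row and 4 were tested. NRP1, a co-receptor for semaphorins and VEGF and in the mouse a marker of arteries that NR2F2 is known to restrain in veins, had 169, 167 and 138 CPM in AA2P libraries, against 101, 93.1 and 96.7 CPM in control libraries, and rose 1.62-fold. NRP2, its paralog of veins and lymphatic vessels, fell to 89.5 ± 13.2 CPM with AA2P, against 132 ± 2.89 CPM in controls (SD, n = 3 each). HEY2, an arterial Notch target, had 2, 6 and 4 counts in AA2P libraries and 17, 18 and 15 counts in control libraries, and fell 4.31-fold. ZFPM1, a zinc-finger cofactor also called FOG1, averaged 5.31 ± 0.376 CPM with AA2P and 5.51 ± 0.822 CPM in controls. Adjusted p-values of NRP1, NRP2 and HEY2 were 3.5e-07, 1.4e-05 and 0.00054 by edgeR's quasi-likelihood test.

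Genes that supply or fold the corticoid receptors changed in both directions. HSD11B1, the enzyme that regenerates active cortisol, had 3.60, 3.42 and 5.92 CPM in AA2P libraries, against 10.8, 10.3 and 10.7 CPM in control libraries. It fell 2.42-fold, and H6PD, which makes its cofactor, fell 1.23-fold but missed the threshold with library totals. The receptor cochaperone FKBP4 rose 1.67-fold and the chaperone HSP90AA1 rose 1.56-fold, while HSP90AB1 averaged 2317 ± 105 CPM with AA2P and 2447 ± 22.8 CPM in controls (SD, n = 3 each). HSP90AB1 did not pass in this fit, but passed under 1 of 13 alternatives. Of 8 listed genes 7 were tested, 2 rose, 2 fell and 3 did not pass, and reads of HSP90 genes could be shared with near-identical copies. Adjusted p-values of the 4 that passed lay between 5.1e-09 (HSP90AA1) and 0.0027 (H6PD) by edgeR's quasi-likelihood test.

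Of 16 listed corticoid targets 12 had a row and 9 were tested, and 5 rose and 4 fell, with a median log2 fold change of 0.35. The 6 with the smallest p-values are named here, and they include all that fell but not all that rose. FKBP5, a cochaperone that glucocorticoids induce in most cells, had 171, 161 and 172 CPM in AA2P libraries, against 214, 212 and 223 CPM in control libraries. It fell 1.29-fold. The phosphatase DUSP1, the EGF receptor inhibitor ERRFI1 and the NF-kappaB inhibitor NFKBIA fell 1.41-fold, 2.23-fold and 1.56-fold. The clock gene PER1 rose 1.54-fold, and PCK1, an enzyme of glucose production in liver and kidney tubule, rose to 25.6 ± 5.88 CPM with AA2P, against 3.91 ± 1.48 CPM in controls (SD, n = 3 each). AA2P library 3 was the lowest of its group for PCK1, with 19.4 CPM, and the highest control library had 4.82 CPM. Adjusted p-values of the 6 targets named here lay between 1.3e-08 (PCK1) and 9.8e-06 (FKBP5) by edgeR's quasi-likelihood test.

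LXR targets, in a list of 12 with 5 tested, went in both directions, 3 higher and 2 lower. ABCA1 and ABCG1, the cholesterol exporters that are the best known LXR targets, fell 1.76-fold and 1.80-fold. ABCA1 had 271, 263 and 310 CPM in AA2P libraries, against 468, 483 and 532 CPM in control libraries. SCD and SREBF1, lipid synthesis genes that sterol regulatory element-binding proteins also drive, rose 2.09-fold and 1.24-fold, and LPCAT3, a phospholipid remodelling enzyme, rose 1.28-fold. Adjusted p-values lay between 1.3e-08 (SCD) and 0.0016 (ABCG1) by edgeR's quasi-likelihood test. NR1H3 was higher and its partner RXRA lower in the same libraries.

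Of 7 listed FXR targets 3 were tested and 2 rose, while NR1H4 itself was lower. ABCB11, the bile salt export pump, had 16.1, 14.6 and 9.53 CPM in AA2P libraries, against 1.26, 1.65 and 1.55 CPM in control libraries, and rose 8.96-fold with an adjusted p of 3.0e-09. SLC51B, a subunit of the basolateral organic solute transporter, had 51, 42 and 45 counts in AA2P libraries and 4, 0 and 4 counts in control libraries, with an adjusted p of 7.0e-07 by edgeR's quasi-likelihood test. Its partner subunit SLC51A had at most 0.0501 CPM in any library and was not tested. SDC1, a cell surface proteoglycan, averaged 62.2 ± 4.44 CPM with AA2P and 58.9 ± 5.89 CPM in controls (SD, n = 3 each). It did not pass in this fit, but passed under 1 of 13 alternatives.

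PPAR targets went both ways. Of 13 listed, 7 were tested, 2 rose, 2 fell and 3 did not pass, with a median log2 fold change of 0.06. ANGPTL4, a secreted lipase inhibitor that hypoxia also induces, fell 2.14-fold to 10.6 ± 0.977 CPM with AA2P, against 22.8 ± 0.733 CPM in controls (SD, n = 3 each), and PLIN2, a lipid droplet coat protein, fell 1.21-fold but missed the threshold with library totals. FABP3, a fatty acid carrier, rose 1.31-fold, and PDK4, a brake on glucose oxidation, rose from few reads, with 18 to 21 counts per AA2P library and 2 to 5 per control library. CPT1A and ACADVL, enzymes of fatty acid oxidation, averaged 283 ± 9.37 and 57.5 ± 1.63 CPM with AA2P, against 272 ± 10.8 and 57.0 ± 2.45 CPM in controls. They did not pass in this fit, but each passed under 1 of 13 alternatives. The fat cell genes FABP4, ADIPOQ and CIDEC had at most 0.123 CPM in any library. Adjusted p-values of the 4 that passed lay between 3.5e-08 (ANGPTL4) and 0.00038 (PLIN2) by edgeR's quasi-likelihood test.

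Clock genes, the targets and partners of RORA and the NR1D receptors, included 3 repressors with large decreases, while BMAL1 and CLOCK did not pass the test. Of 15 listed names 11 were tested, 2 rose, 4 fell and 5 did not pass. NFIL3, BHLHE40 and BHLHE41, repressors of clock output, fell 2.78-fold, 2.63-fold and 2.42-fold. BHLHE41 had 30.6, 30.4 and 32.3 CPM in AA2P libraries, against 74.2, 74.9 and 76.8 CPM in control libraries, with an adjusted p of 4.1e-11 by edgeR's quasi-likelihood test. CRY2, a core repressor of the clock, rose 1.71-fold and the output factor TEF 1.39-fold, with the highest adjusted p of these 5 genes, 0.0047. BMAL1, the direct RORA target of the core loop, averaged 12.6 ± 0.387 CPM with AA2P and 11.6 ± 0.835 CPM in controls, and its partner CLOCK averaged 151 ± 7.10 CPM with AA2P and 150.0 ± 5.36 CPM in controls (SD, n = 3 each). CRY1, the paralog of CRY2, averaged 17.2 ± 0.394 CPM with AA2P and 14.9 ± 0.949 CPM in controls and did not pass. BMAL1, CLOCK and CRY1 passed the threshold with library totals, with log2 fold changes of 0.29, 0.18 and 0.37, and CRY1 also passed without control library 1, at 0.25.

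**Figure D4:**
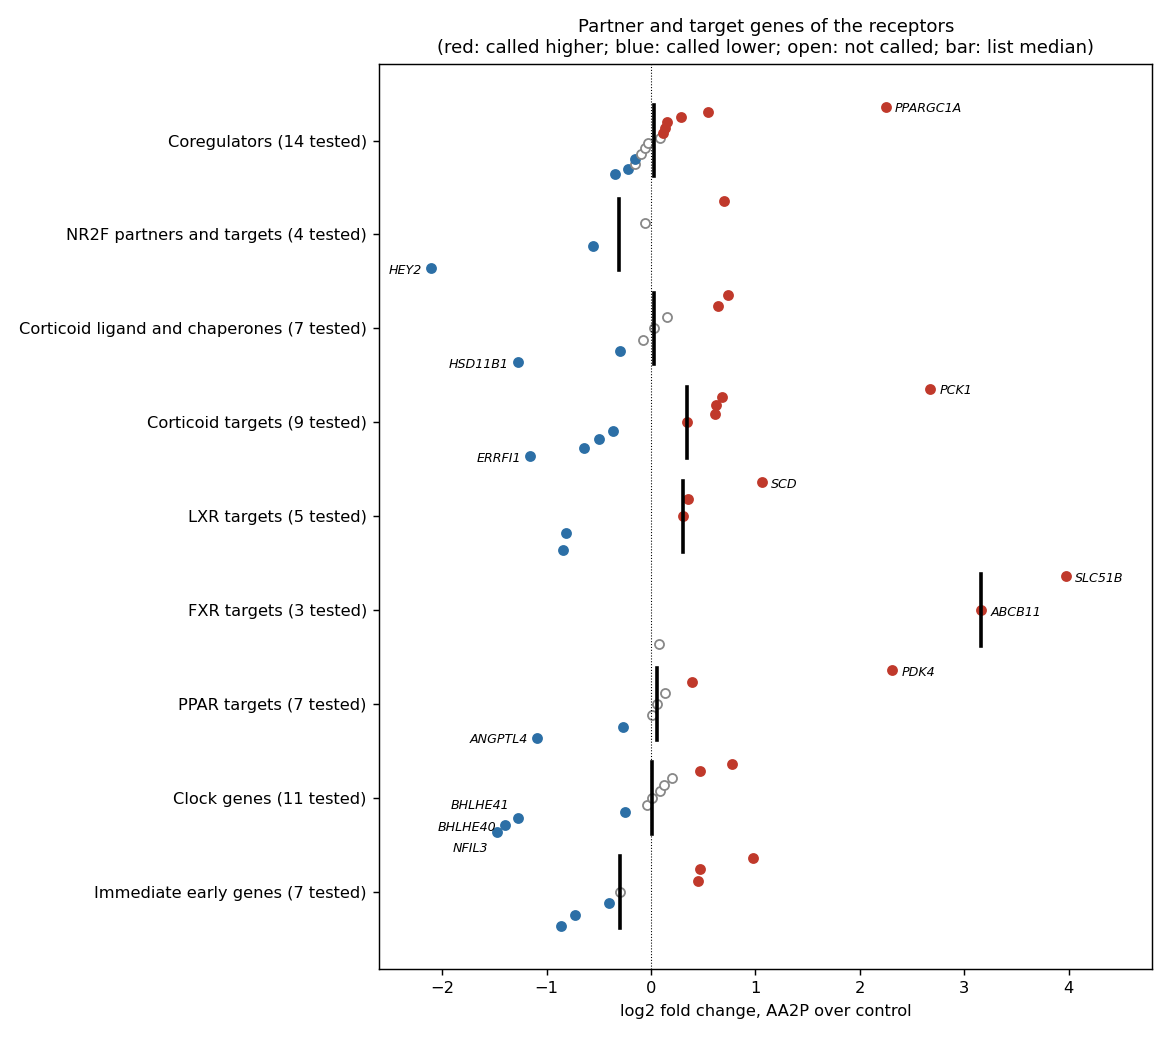
Log2 fold change, AA2P over control, of each tested gene in 9 lists of receptor partners and targets, with red points higher, blue points lower and open points not past an adjusted p of 0.05, and a bar at each list's median. The FXR targets ABCB11 (3.16) and SLC51B (3.97) lie farthest right and HEY2 (-2.11) farthest left, and most lists have points on both sides of 0.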

How the data were processed

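Per the labels' protocols, total RNA of the 6 cell samples was sequenced on a HiSeq X-Ten. bcl2fastq, a read converter, and HISAT2 2.0.5, an aligner, are named in the submitters' processing notes. The counting tool, its strand setting, the annotation and the build are not given in the sources used here. What the authors deposited were raw read counts per Ensembl gene, not normalized. Genes that overlap others are therefore uncertain. In RefSeq's Sscrofa 11.1 annotation 5 of the 10 genes overlap another entry (NR2F2, NR3C1, NR3C2, NR1H3 and RORA).

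A symbol was matched to 13141 of 17670 rows, and rows were fitted in R 4.3.3 with edgeR 4.0.16 (filterByExpr, TMM, quasi-likelihood F test on the group alone, Benjamini-Hochberg adjustment over 12701 genes, threshold 0.05). Standard errors are the absolute log2 fold change over the root of F. The common biological coefficient of variation was 5.49%. The fit was tested on simulated counts. The members and lists were chosen with earlier results of these data known, and lists are described by counts and medians, without a set test. Of the listed genes 6 are not reported here, and the lists' counts and sums leave them out. Any nuclear receptor with a row could be named, and of each partner or target list up to 6 called genes by smallest p and up to 3 tested others by highest CPM. MADD, ACP2, SLC51A, FABP4, ADIPOQ and CIDEC were added after their values were seen. Alternatives were library totals, DESeq2 1.42.0 size factors and Wald test, limma-voom (limma 3.58.1), 2 other filters, a replicate block, an adjusted p of 0.01 and each library left out.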

Additional observations from a re-analysis of the deposited data

How the results depend on the processing

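The 9 tested receptors of the set kept their direction under all alternatives run. With 7 of 9 called in the fit reported, 8 were called with library totals, which added PPARG. With no filter, where NR3C2 was tested, 8 of 10 were called, and 7 under each other alternative. Leaving out a library gave 7 each time. Among all tested genes 7549 of 12701 were called with library totals and 6925 of 17670 with no filter, against 6615 of 12701 in the fit reported. Since the receptors were picked on this contrast, nothing is read from their counts. Log2 fold changes of NR2F2 ran from 0.93 to 1.18, of NR2F1 from 0.85 to 1.10 and of NR3C1 from -0.35 to -0.17 over 13 alternatives. Over all genes, library totals gave 5727 genes higher and 1822 lower, against 3302 and 3313 with TMM, and 4 other nuclear receptors lower, against 7. SIN3A, a called coregulator, reversed to 0.019 on the log2 scale with library totals and no longer passed. With the replicate number as a block 6204 genes were called, against 6615, and 7 of the receptors described and 17 of the other receptors, as without it. Deviations from the group means correlated at -0.04, -0.02 and -0.06 for pairs 1, 2 and 3. The largest correlation, 0.11, joined AA2P library 1 with control library 3, and no library correlated best with its own number. With 3 libraries per group, these values cannot decide whether the numbers pair cultures or donors, and the labels do not say. At an adjusted p of 0.01 5095 genes passed. The cause of these shifts was not tested. Depth limits NR3C2, NR4A1, NR4A3, NR1D1, ESR1, ESR2, PPARGC1A, HEY2, SLC51B, PDK4, FOSB, CNN1 and AQP1, whose counts per library were at most 57. It also limits TF, which had 2 to 8 counts per control library.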

Other observations

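Immediate early genes, the class to which NR4A1 belongs, went both ways. Of 11 listed, 7 were tested, 3 rose and 3 fell. JUNB fell 1.66-fold and ATF3 fell 1.82-fold, with adjusted p-values of 3.3e-07 and 3.9e-09 by edgeR's quasi-likelihood test. JUN and EGR1 rose 1.38-fold and 1.37-fold, with adjusted p-values of 2.6e-05 and 0.00088. FOS fell 1.32-fold but missed the threshold with library totals. FOSB was called from few reads and missed it under 8 of the 12 alternatives in which it was tested. Among receptors with a row, RORB, NR1I3, NR2E1 and NR5A1 were not tested. RORB had 1 count in each AA2P library and 0 in each control library, and NR5A1, a receptor of steroid-producing and Sertoli cells, had 0 to 5 counts in any library.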
